A study of Mus musculus with 9 samples.

Results

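The 38 genes described here are ATF4 and amino acid response genes. They come from a list of names chosen with earlier results of these data known. All 38 were found by symbol among the 40548 genes with RNA-seq values. They fall into 4 groups: 9 stress factors and regulators, 10 enzymes of amino acid and one-carbon synthesis, 7 amino acid transporters and 12 aminoacyl-tRNA synthetases. RNA was profiled in primary osteoblast cultures from the calvaria of C57BL/6 mice, taken at postnatal day 2-3. The labels name no transgene, and the methods describe cultures from both C57BL/6J wild type and ColI-GFP reporter pups without saying which were sequenced. There were 3 libraries at day 0 (confluent cells without differentiation), 3 at day 4 and 3 at day 7 of culture in mineralization medium. Non-mineralized cells were lifted with trypsin alone, and mineralized cells were first treated with collagenase I, so that the way the cells were harvested and the stage cannot be told apart. Total RNA was depleted of ribosomal RNA. The paper calls the 3 samples of each stage biological replicates. The labels do not say which libraries came from separate cultures or animals, and the p-values below measure only the spread between these libraries.

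ATF4 is a bZIP transcription factor and the main effector of the integrated stress response. Phosphorylation of the translation factor eIF2 by one of several kinases, which sense amino acid shortage, unfolded protein in the endoplasmic reticulum, viral RNA or heme deficiency, lowers general translation while favouring translation of the Atf4 mRNA. The protein then binds, with C/EBP partners, to C/EBP-ATF response elements of genes for amino acid synthesis, amino acid uptake, tRNA charging and stress control. In osteoblasts ATF4 is known as a factor needed for amino acid import, collagen production and the late markers of bone-forming cells. Because ATF4 is controlled in large part by translation, RNA levels of Atf4 do not measure its protein.

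The element that ATF4 and its C/EBP partners bind was looked for first, as the letters TGATGNAA on either strand, in windows from 250 bases before to 50 bases after the RefSeq gene start on GRCm38.p6. Of the 38 genes 31 had a window, and 7 (Cth, Slc7a5, Slc1a5, Cars, Lars, Nars and Wars) had none. The letters were present in 14 of 31 genes (45.2%), against 1219 of 27025 genes of the whole table (4.51%). The same letters were found in 5 of 9 stress factors, 2 of 9 synthesis enzymes, 2 of 5 transporters and 5 of 8 synthetases. Within the 250 bases before the start alone they were found in 10 of 31 genes (32.3%), against 3.91% of all genes. Many of these genes are in the list because they are known ATF4 targets, so this share is a description of the list. The CRE letters TGACGTCA, which other ATF and CREB proteins bind, occurred in Ppp1r15a only, 12 bases before its start, against 2.03% of all genes.

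The stretches around these letters are shown for 4 stress genes that were higher at day 7 than at day 0 (Atf3, Chac1, Nupr1 and Vldlr), for Slc7a11, which was lower, and for 2 genes that did not pass the test (Pycr1 and Asns), each written 5′ to 3′ on the gene's own strand with the element in capitals. Positions are on GRCm38.p6, and the stretches of Nupr1, Vldlr and Asns are kept to 30 bases because they lie in annotated exons of the same locus.
Atf3, chr1:191183400-191183479, minus strand: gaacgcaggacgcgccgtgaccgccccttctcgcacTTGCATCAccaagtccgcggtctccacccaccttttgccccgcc
Chac1, chr2:119351013-119351092, plus strand: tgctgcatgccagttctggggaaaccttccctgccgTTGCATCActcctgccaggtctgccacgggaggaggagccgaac
Nupr1, chr7:126625562-126625591, minus strand: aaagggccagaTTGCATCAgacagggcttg
Vldlr, chr19:27216809-27216838, plus strand: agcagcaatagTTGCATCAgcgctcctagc
Slc7a11, chr3:50443617-50443715, minus strand: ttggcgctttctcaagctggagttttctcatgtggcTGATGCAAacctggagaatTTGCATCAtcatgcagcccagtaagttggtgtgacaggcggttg
Pycr1, chr11:120643808-120643887, minus strand: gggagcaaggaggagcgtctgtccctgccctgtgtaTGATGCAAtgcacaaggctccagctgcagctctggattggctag
Asns, chr6:7693214-7693243, minus strand: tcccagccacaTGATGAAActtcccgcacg
The element began 110 bases before the start in Atf3 and Nupr1, 193 in Chac1, 200 in Vldlr, 103 in Pycr1 and 23 in Asns, and Slc7a11 had a pair of copies, 66 and 47 bases before the start. The letters TTGCATCA, the reverse complement of one form of the element, were thus identical, on the same strand relative to the gene, in Atf3, Chac1, Nupr1, Vldlr and Slc7a11. The same letters in this direction also lay in the windows of Aars, which was lower at day 7, and of Slc1a4, Iars and Tars, which did not pass the test. The search pattern left only the letter N free, so most of this identity was set by the search.

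The libraries held between 7741204 and 37306090 reads on genes. Day 0 replicate 3 and day 7 replicate 2 stood apart, with 20.8% and 13.3% of reads on ribosomal RNA-related rows against 0.728% to 5.87% in the other 7 libraries. These rows lower every other gene's share, and day 0 replicate 3 had the lowest day 0 value for 35 of the 38 genes and day 7 replicate 2 the lowest day 7 value for 29. The day 4 values were scaled and deposited apart from those of day 0 and day 7, and they entered no comparison with a p-value. Day 7 was tested against day 0 over 12712 genes with limma, of which 1602 (12.6%) were higher and 2369 (18.6%) lower at a Benjamini-Hochberg adjusted p under 0.05. All fold changes were taken on a scale of log2(CPM + 0.5), where the median of all genes was -0.11. Scaling by median-of-ratios size factors moved that median to -0.01 and the share of calls that were higher from 40.3% to 52.1%, and leaving out the ribosomal RNA-related rows moved them to -0.19 and 27.4%. Of 10 osteoblast markers, 9 rose by limma from day 0 to day 7, and Runx2 did not pass the test (0.23, adjusted p = 0.30). Its libraries did not overlap, with 7.57 to 8.32 RPKM at day 0 and 8.78 to 10.1 RPKM at day 7. The call for Runx2 depended on the method, since edgeR, DESeq2 and voom each called all 10 markers higher. Of all genes these methods called 22.2%, 20.3% and 24.8% higher. Ibsp, a mineral-binding matrix protein, was at 3.82, 1159 and 2808 RPKM at day 0, day 4 and day 7. The 10 macrophage markers also rose, with summed CPM from 69.2 to 118 at day 0, 139 to 156 at day 4 and 147 to 191 at day 7, none of them at 0 in any library. Osteoclast markers summed to 152 to 200 CPM at day 0, 352 to 362 at day 4 and 347 to 363 at day 7, and chondrocyte markers to 936 to 2715, 311 to 988 and 271 to 766. Within both lists single markers went either way. By limma 2 of 3 osteoclast markers tested were higher and 1 lower, and 2 of 5 chondrocyte markers were higher and 3 lower, against 12.6% and 18.6% of all genes. Of these lists Calcr, Dcstamp and Matn1 were at 0 in some libraries. The part of these cell types in the results below was not tested. In bulk RNA, fewer cells of a type and less RNA per cell cannot be told apart.

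Of the 37 genes of the list that could be tested, 8 rose between day 0 and day 7 (against 12.6% of all genes) and 7 fell (against 18.6%), and their median log2 fold change was -0.01. Cbs, which makes cystathionine from homocysteine, had 2 to 28 reads per library and did not reach the mean of 1 CPM required for the test. The 8 that rose were Atf4, Atf3, Ddit3, Chac1, Nupr1, Ppp1r15a, Vldlr and Mthfd2, and the 7 that fell were Sesn2, Psat1, Phgdh, Slc7a11, Slc7a5, Aars and Lars. Taking unadjusted p-values under 0.05 instead, 10 were higher and 9 lower, against 15.2% and 25.0% of all genes. The rises lay almost all in the stress group: 7 of its 9 genes rose and 1 fell, with a median of 0.80. In the other groups 1 of 9 synthesis enzymes rose and 2 fell (median -0.19), 2 of 7 transporters fell (median -0.03) and 2 of 12 synthetases fell (median -0.10), and none of the transporters or synthetases rose by limma (2 transporters and 0 synthetases at an unadjusted p under 0.05). With median-of-ratios scaling the members' counts were 14 higher and 8 lower, among them 3 transporters higher (Slc7a1, Slc1a5 and Slc38a2), while 22.4% and 20.5% of all genes were called. The shares of all genes called higher and lower were 22.2% and 20.8% with edgeR, 20.3% and 18.3% with DESeq2 and 24.8% and 23.4% with voom and quality weights. Of the 15 calls, 8 held in all 18 alternatives: Atf3, Ddit3, Chac1, Nupr1, Ppp1r15a and Vldlr as higher, and Slc7a11 and Slc7a5 as lower.

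**Figure D1:**
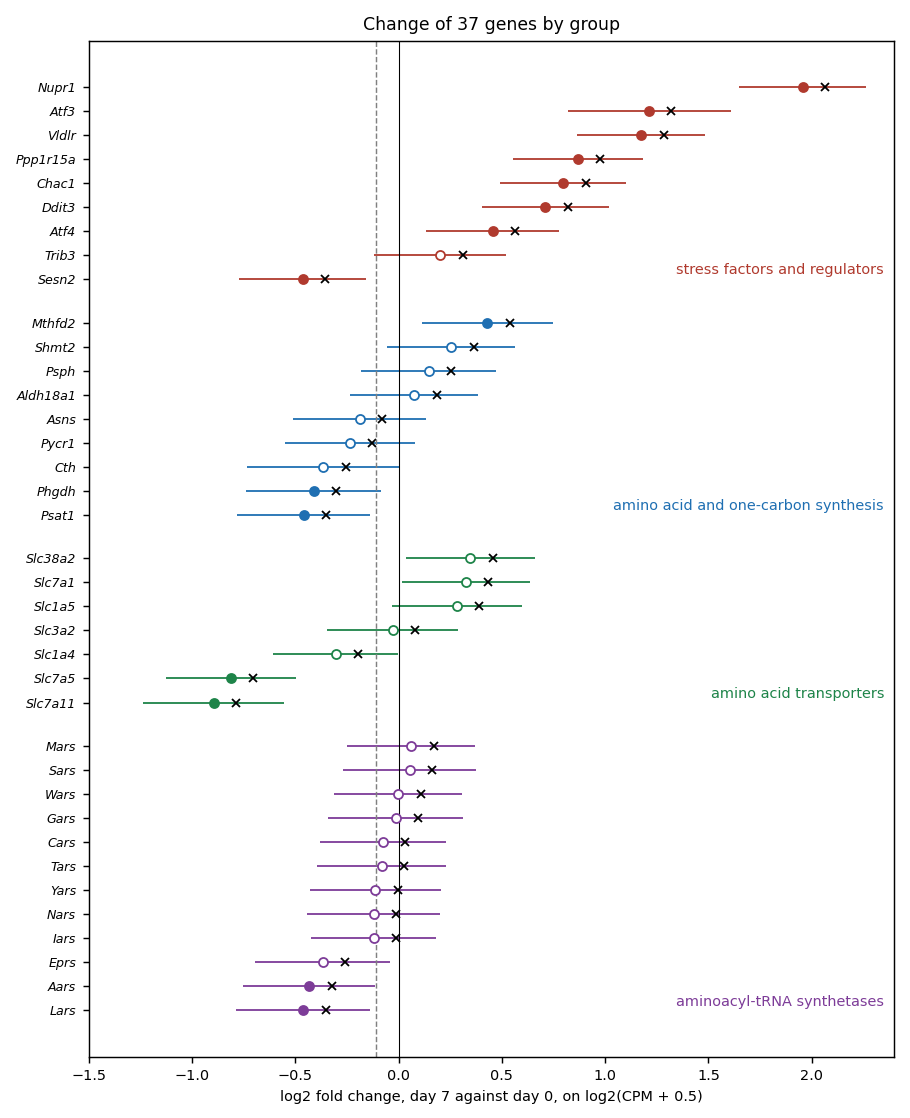
Log2 fold change at day 7 against day 0 on the log2(CPM + 0.5) scale for the 37 genes tested, by group, with filled circles for genes past the adjusted threshold, open circles for the others, lines for 95% confidence intervals, crosses for the value under median-of-ratios scaling and a dashed line at the median of all genes (-0.11). The stress factors reach from -0.46 to 1.96, whereas the synthetases lie between -0.46 and 0.06.

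Atf4 itself, on chromosome 15 (80255184 to 80257541, plus strand), had the highest RPKM of the 38 genes at day 0. Its values were 327, 335 and 262 RPKM at day 0, 414, 443 and 453 RPKM at day 4 and 432, 401 and 428 RPKM at day 7. All libraries of day 4 and day 7 lay above all of day 0, and those of day 4 and day 7 overlapped. The log2 fold change at day 7 was 0.45 (SE 0.16, limma adjusted p = 0.0253), which is 0.57 more than the median over all genes, and it passed the threshold in 13 of 18 alternatives. It was not past it without day 7 replicate 1, 2 or 3 (adjusted p = 0.0999, 0.0552 and 0.124), with genes with any reads or with the RPKM table.

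Nupr1, a small stress-induced chromatin protein, had the largest rise of the group. It was at 44.2, 43.6 and 37.6 RPKM at day 0, at 118, 139 and 136 RPKM at day 4 and at 182, 149 and 158 RPKM at day 7. Each stage lay wholly above the one before it. Its level at day 7 was 3.88-fold that of day 0 (log2 fold change 1.96, SE 0.15, limma adjusted p = 5.41e-15). Nupr1 and Trib3 were the only members of the list with every day 7 library above every day 4 library.

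Atf3, a bZIP factor induced early in many stress responses, was the lowest of the group at day 0, with 5.18, 5.35 and 3.25 RPKM. It was at 15.7, 15.4 and 17.3 RPKM at day 4 and 13.4, 9.91 and 9.32 RPKM at day 7. The stages did not overlap, and day 4 was the highest. From day 0 to day 7 it was 2.32-fold higher (log2 fold change 1.21, SE 0.20, limma adjusted p = 2.27e-06). Ppp1r15a, the eIF2 phosphatase subunit GADD34 that ends the response, had the same order of stages, with 15.01, 15.2 and 13.2 RPKM at day 0, 33.8, 43.0 and 38.8 RPKM at day 4 and 27.8, 25.1 and 26.6 RPKM at day 7. Its log2 fold change at day 7 was 0.87 (SE 0.16, limma adjusted p = 1.52e-05).

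Vldlr, a lipoprotein receptor, was at 13.2, 14.7 and 11.2 RPKM at day 0, 20.9, 32.4 and 25.9 RPKM at day 4 and 31.8, 28.5 and 27.6 RPKM at day 7. Day 4 spread most and overlapped day 7, and both lay above day 0. At day 7 it was 2.26-fold higher than at day 0 (log2 fold change 1.17, SE 0.15, limma adjusted p = 2.39e-08). Chac1, which degrades glutathione, and Ddit3, the factor CHOP, rose to day 7 values that overlapped those of day 4, and both later stages lay above day 0. Chac1 was at 49.1, 51.2 and 46.1 RPKM at day 0, 85.8, 81.9 and 92.0 RPKM at day 4 and 89.0, 79.9 and 86.3 RPKM at day 7, a log2 fold change of 0.80 (SE 0.15, limma adjusted p = 3.80e-05). Ddit3 was at 84.5, 92.2 and 76.6 RPKM at day 0, 109.7, 146 and 147 RPKM at day 4 and 138, 126 and 151 RPKM at day 7, a log2 fold change of 0.71 (SE 0.15, limma adjusted p = 0.000239). Ddit3 shares 68 exonic bases with Mars on the opposite strand and 105 with a second Ddit3 entry, and whether the authors counted by strand is not given in the sources used here.

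The other 2 genes of the stress group took another course. Sesn2, a leucine sensor that restrains mTORC1, was at 43.5, 42.4 and 38.1 RPKM at day 0, 40.5, 38.8 and 41.1 RPKM at day 4 and 31.6, 26.7 and 31.6 RPKM at day 7. It thus overlapped between day 0 and day 4, and every day 7 library lay below. Its log2 fold change was -0.46 (SE 0.15, limma adjusted p = 0.0164), and it lost the call without either of day 0 replicates 1 and 2 or of day 7 replicates 2 and 3 (adjusted p from 0.0574 to 0.141). Trib3, a pseudokinase that binds ATF4 and restrains its activity, was at 61.9, 82.1 and 55.2 RPKM at day 0, 41.1, 53.5 and 50.4 RPKM at day 4 and 80.9, 69.1 and 76.2 RPKM at day 7. It was the one member of the stress group whose day 4 libraries all lay below day 0, while at day 7 its values overlapped day 0 (log2 fold change 0.20, SE 0.16, limma adjusted p = 0.363), with a call as higher under median-of-ratios scaling, edgeR and DESeq2 (adjusted p = 0.0287, 0.0378 and 0.0156).

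The genes of the dissociation and immediate early response moved beside this group. Their summed CPM was 405 to 499 at day 0, 920 to 1087 at day 4 and 469 to 634 at day 7, so that day 4 stood highest, and none of the 15 was at 0. At day 4 every library lay above day 0 for 12 of them, against 21.1% of all genes. Between day 0 and day 7 a total of 4 rose and 1 fell (Ier3 1.41, Egr1 -0.83), against 12.6% and 18.6%. Chaperones and sensors of the ATF6 and XBP1 branches of the unfolded protein response also moved, with 9 of 15 rising by limma, against 12.6% of all genes. With edgeR 12 rose, with DESeq2 13 and at an unadjusted p under 0.05 10, against 22.2%, 20.3% and 15.2% of all genes. None fell in any of these. Dnajb9, a co-chaperone of BiP, rose by 1.56 on the log2 scale (SE 0.18, limma adjusted p = 3.97e-10), from 7.27 to 21.8 RPKM. The part of either list in the rise of the stress group was not tested.

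**Figure D2:**
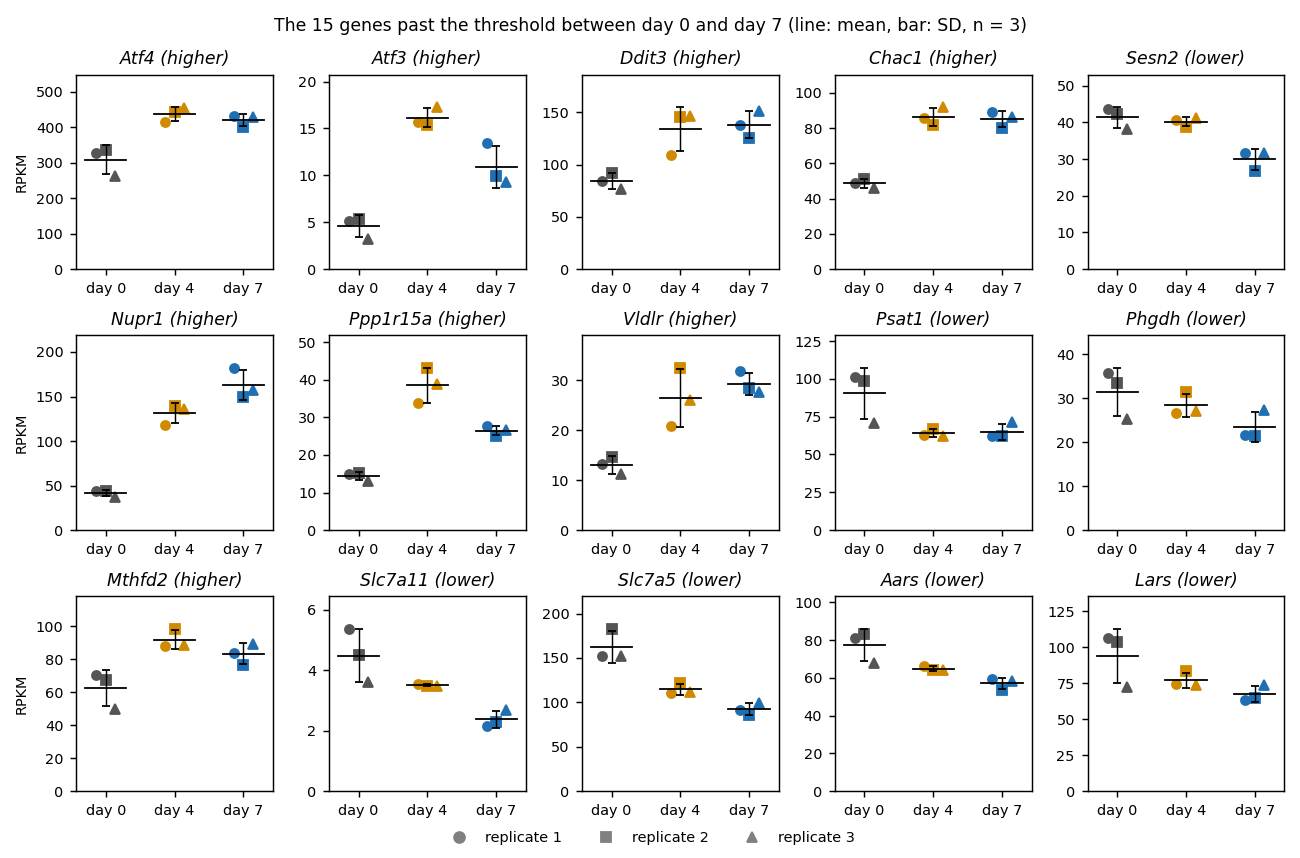
RPKM in each of the 9 libraries for the 15 genes past the threshold between day 0 and day 7, with circle, square and triangle for replicates 1, 2 and 3, a line for the mean and a bar for the SD (n = 3). Atf3 and Ppp1r15a stand highest at day 4, Nupr1 climbs through all 3 stages, and Slc7a11, Slc7a5 and Aars step down.

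Among the synthesis enzymes Psat1 and Phgdh, which together with Psph make serine from a glycolytic intermediate, fell. Psat1 was at 101, 98.8 and 71.1 RPKM at day 0, 63.1, 67.0 and 62.5 RPKM at day 4 and 62.0, 61.9 and 71.2 RPKM at day 7 (log2 fold change -0.46, SE 0.16, limma adjusted p = 0.0234). Phgdh was at 35.7, 33.4 and 25.2 RPKM at day 0, 26.6, 31.4 and 27.2 RPKM at day 4 and 21.6, 21.4 and 27.5 RPKM at day 7 (log2 fold change -0.41, SE 0.16, limma adjusted p = 0.0485). In both genes day 0 replicate 3 overlapped the day 7 values. Both calls were lost without either of day 0 replicates 1 and 2 or of day 7 replicates 1 and 2, with adjusted p from 0.0949 to 0.136 for Psat1 and from 0.174 to 0.229 for Phgdh. Of all 18 alternatives, Psat1 passed the threshold in 13 and Phgdh in 10. In addition, 47.8% of the 50-base stretches of Phgdh transcripts also occur in other genes, chiefly Gm7901, so its count depends on how such reads were treated. Psph, the last enzyme of the path, was at 20.3 ± 4.38, 26.2 ± 1.56 and 22.1 ± 1.56 RPKM (SD, n = 3) at day 0, day 4 and day 7 and did not pass the test (0.15, adjusted p = 0.536) except under the count models and median-of-ratios scaling, where it was higher (adjusted p from 0.0323 to 0.0410).

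Mthfd2, which oxidizes serine-derived one-carbon units in mitochondria, was the one synthesis gene that rose. It was at 70.2, 67.2 and 49.99 RPKM at day 0, 88.3, 98.5 and 88.7 RPKM at day 4 and 84.1, 76.6 and 89.5 RPKM at day 7. Day 0 lay below both later stages in every library. The log2 fold change was 0.43 (SE 0.16, limma adjusted p = 0.0320). The call was lost without day 7 replicate 1 or 3 (adjusted p = 0.111 and 0.184), with genes with any reads, with RPKM values and with the replicate block. Mthfd2 passed the threshold in 13 of 18 alternatives. Its neighbour in the pathway, Shmt2, which splits serine into glycine and a one-carbon unit in mitochondria, was at 84.3 ± 9.69, 117 ± 13.8 and 100.3 ± 7.02 RPKM (SD, n = 3). All 3 day 7 libraries of Shmt2 lay above day 0, but the gene did not pass the test (0.25, adjusted p = 0.216) except under the count models and median-of-ratios scaling, where it was higher (adjusted p from 0.000107 to 0.00408). Its cytosolic counterpart Shmt1 was far lower, and the ratio of Shmt2 to Shmt1 in RPKM was 30.9, 26.9 and 33.4 at day 0, 40.1, 59.5 and 42.5 at day 4 and 38.4, 37.8 and 36.97 at day 7.

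The remaining synthesis genes did not pass the test. Asns, asparagine synthetase and a standard readout of the amino acid response, was at 166, 152 and 114 RPKM at day 0, 122, 140.4 and 122 RPKM at day 4 and 121, 118 and 137 RPKM at day 7. The 3 stages overlapped (log2 fold change -0.19, SE 0.16, limma adjusted p = 0.400). Asns was called lower at day 7 without day 0 replicate 3 (-0.35, adjusted p = 0.0126) and without ribosomal RNA-related rows (-0.27, adjusted p = 0.0314). Aldh18a1 and Pycr1, the first and last enzymes of proline synthesis from glutamate, had log2 fold changes of 0.08 and -0.24 (adjusted p = 0.754 and 0.262). Every day 4 library of Aldh18a1 lay above all of day 0 and all of day 7, with means of 71.2 ± 5.60, 89.4 ± 4.97 and 75.0 ± 5.497 RPKM (SD, n = 3). Pycr1 was called lower without day 0 replicate 3 (-0.34, adjusted p = 0.0122) and without ribosomal RNA-related rows (-0.32, adjusted p = 0.0126). Cth, which makes cysteine from cystathionine, was at 16.7 ± 4.47, 12.7 ± 3.28 and 12.8 ± 2.83 RPKM (SD, n = 3; -0.36, adjusted p = 0.131), and it too was called lower without day 0 replicate 3 (-0.57, adjusted p = 0.0156).

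Chac1 and Asns, both with the element before the start, parted within each library. The ratio of Chac1 to Asns in RPKM was 0.296, 0.336 and 0.404 at day 0, 0.705, 0.583 and 0.755 at day 4 and 0.739, 0.677 and 0.631 at day 7. Day 0 lay below both later stages, with a log2 difference of 0.99 between day 7 and day 0 (p = 0.1 by a two-sided exact permutation test, which cannot give less with 3 libraries against 3). This ratio is free of the share taken by ribosomal RNA, and the pair was chosen after the values were seen.

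Among the transporters, Slc7a11 and Slc7a5 fell, and both calls held in all 18 alternatives. Slc7a11, the light chain of the cystine and glutamate exchanger, was at 5.37, 4.49 and 3.61 RPKM at day 0, 3.55, 3.49 and 3.49 RPKM at day 4 and 2.14, 2.30 and 2.67 RPKM at day 7. The stages stepped down without overlap, by a log2 fold change of -0.90 (SE 0.17, limma adjusted p = 3.53e-05) from day 0 to day 7. Slc7a5, the light chain of the importer of leucine and other large neutral amino acids (LAT1), was at 152, 183 and 152 RPKM at day 0, 111, 122 and 112 RPKM at day 4 and 91.1, 86.2 and 99.2 RPKM at day 7. It also stepped down without overlap (log2 fold change -0.81, SE 0.16, limma adjusted p = 4.84e-05), and it was number 4 of the 38 genes by RPKM at day 0.

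Slc3a2, the heavy chain (CD98) that both light chains need to reach the cell surface, did not follow them. It was at 95.3, 130.04 and 100.3 RPKM at day 0, 98.7, 107 and 107 RPKM at day 4 and 113, 99.2 and 105 RPKM at day 7. The stages overlapped, and the log2 fold change of -0.03 (adjusted p = 0.916) had a 95% confidence interval from -0.34 to 0.29. Within each library the ratio of Slc7a5 to Slc3a2 in RPKM was 1.60, 1.41 and 1.51 at day 0, 1.12, 1.14 and 1.04 at day 4 and 0.807, 0.869 and 0.948 at day 7. The ratio thus passed from above 1 to below 1 with no overlap between stages, a log2 difference of -0.79 between day 7 and day 0 (p = 0.1 by the same two-sided exact permutation test). This pair was also chosen after the values were seen.

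**Figure D3:**
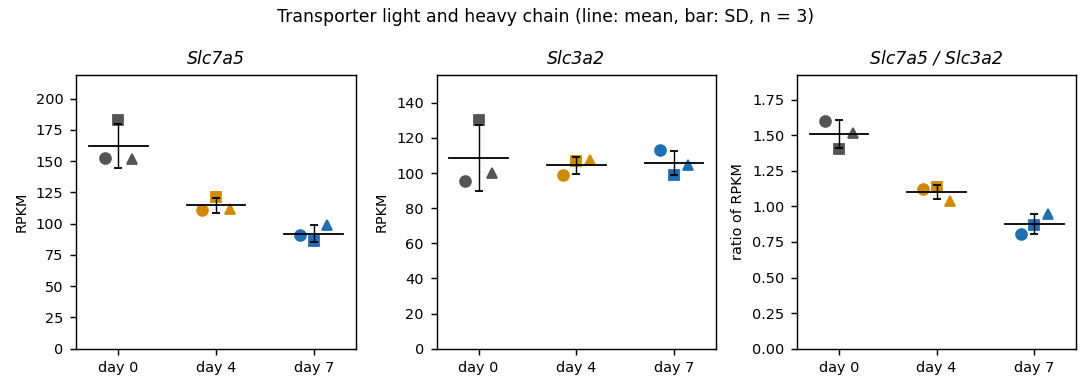
RPKM of the transporter light chain Slc7a5 and heavy chain Slc3a2 and their ratio in each library at day 0, day 4 and day 7, with a line for the mean and a bar for the SD (n = 3). The ratio falls from 1.51 ± 0.0980 to 1.10 ± 0.0518 and 0.875 ± 0.0710, while Slc3a2 overlaps between stages.

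Of the other 4 transporters all but Slc38a2 had their highest mean at day 4. Slc1a5, a glutamine and neutral amino acid exchanger (ASCT2), was at 19.6, 22.4 and 17.2 RPKM at day 0, 32.8, 48.0 and 35.6 RPKM at day 4 and 24.0, 21.3 and 26.7 RPKM at day 7. Every day 4 library stood above all 6 others, while day 0 and day 7 overlapped (log2 fold change 0.28, adjusted p = 0.175). Slc1a4, the related exchanger ASCT1, had day 4 above day 0 and day 0 above day 7 in all libraries, with means of 49.4 ± 3.31, 56.8 ± 3.32 and 40.0 ± 2.07 RPKM (SD, n = 3; -0.30, adjusted p = 0.124), and it was called lower without day 0 replicate 3 (-0.35, adjusted p = 0.00702). Slc38a2, the sodium-coupled neutral transporter SNAT2, and Slc7a1, the cationic amino acid transporter CAT1, lay above day 0 in all day 4 libraries. At day 7 their log2 fold changes were 0.35 and 0.33 (adjusted p = 0.0822 and 0.105). Under median-of-ratios scaling Slc1a5, Slc38a2 and Slc7a1 were called higher at day 7 (adjusted p = 0.00466, 0.00230 and 0.00706), so that the calls of these 3 depended on the scaling. Slc38a2 was also higher without day 0 replicate 3 (0.28, adjusted p = 0.0500, just under the threshold) and without ribosomal RNA-related rows (0.26, adjusted p = 0.0313).

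Cell cycle genes fell over the same interval as the synthesis and transporter genes that fell. Of 12 proliferation markers 9 fell and none rose by limma, edgeR or DESeq2, where 18.6%, 20.8% and 18.3% of all genes fell. At an unadjusted p under 0.05 11 fell and none rose, against 25.0% of all genes lower. Their summed CPM ran from 734 to 1119 at day 0, 428 to 584 at day 4 and 533 to 633 at day 7, and none was at 0. The part of this list in the falls of Psat1, Phgdh, Slc7a11 and Slc7a5 was not tested.

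The aminoacyl-tRNA synthetases, which load each tRNA with its amino acid, had the narrowest range of log2 fold changes of the 4 groups. At day 0 their means ran from 24.4 RPKM (Yars) to 213 RPKM (Gars), and 10 of 12 did not pass the test. Aars, the alanine enzyme, was at 81.2, 83.4 and 67.6 RPKM at day 0, 66.2, 64.0 and 64.2 RPKM at day 4 and 59.3, 53.7 and 58.3 RPKM at day 7. It stepped down without overlap (log2 fold change -0.43, SE 0.16, limma adjusted p = 0.0323), but the call was lost when any 1 library other than day 0 replicate 3 was left out (adjusted p from 0.0765 to 0.157). Of all 18 alternatives, Aars passed the threshold in 11. Exons of Exosc6 cover part of Aars, which has 15.1% of its exonic bases in common with other genes. Lars, the leucine enzyme, was at 106, 103 and 72.0 RPKM at day 0, 74.3, 83.2 and 73.4 RPKM at day 4 and 63.3, 64.7 and 73.4 RPKM at day 7. Here day 0 replicate 3 lay within the range of the later stages (log2 fold change -0.46, SE 0.16, limma adjusted p = 0.0237), and the call was lost without either of day 0 replicates 1 and 2 or of day 7 replicates 1 and 2 (adjusted p from 0.0845 to 0.142). Lars passed the threshold in 13 of 18 alternatives.

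Of the synthetases that did not pass, Eprs, the enzyme for glutamate and proline, came nearest, with 143 ± 24.4, 125 ± 15.1 and 109.8 ± 0.427 RPKM (SD, n = 3; -0.37, adjusted p = 0.0793). It was called lower with median-of-ratios scaling, robust variances, every count model, without ribosomal RNA-related rows and without day 0 replicate 3 (adjusted p from 0.000702 to 0.0421). The other 9 (Cars, Gars, Iars, Mars, Nars, Sars, Tars, Wars and Yars) had log2 fold changes from -0.12 to 0.06. Without day 0 replicate 3 Nars and Yars were called lower (adjusted p = 0.0417 and 0.0340), and without ribosomal RNA-related rows Iars was (-0.21, adjusted p = 0.0447). For 6 genes of the whole list, namely Cars, Gars, Sars, Tars, Wars and Slc3a2, no fit gave a call. The 8 cytosolic synthetases outside the list gave no call by limma at an adjusted or an unadjusted p under 0.05, with a median of 0.09. Both edgeR and DESeq2 called 3 of them higher, against 22.2% and 20.3% of all genes. Under median-of-ratios scaling, edgeR and DESeq2 no synthetase of the list was called higher, and with voom and quality weights Mars alone was (adjusted p = 0.0475).

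**Figure D4:**
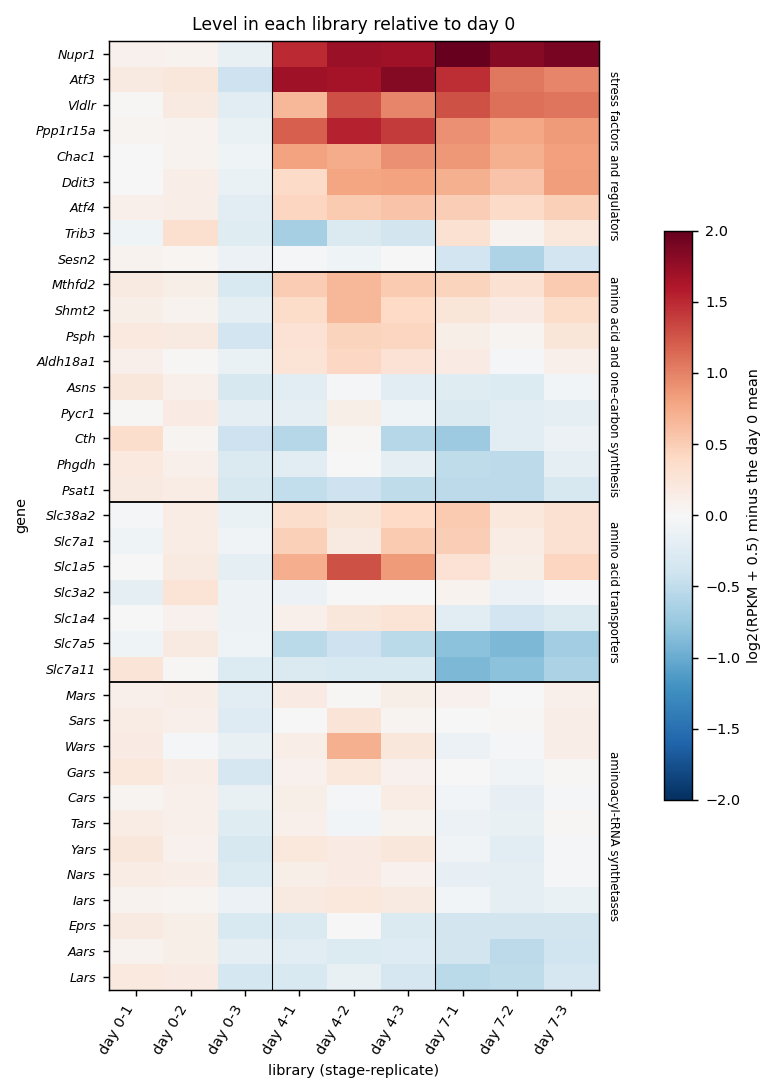
Level of each of the 37 genes in each of the 9 libraries as log2(RPKM + 0.5) minus the gene's day 0 mean, by group, with red above and blue below day 0. The stress factors are red at day 4 and day 7 except Trib3 and Sesn2, Slc7a5 and Slc7a11 are blue, the synthetases are pale, and day 0 replicate 3 is bluer than the other day 0 libraries.

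At day 4, which was deposited in a table of its own and was therefore compared by direction only, 16 of the 38 genes lay above day 0 in every library and 5 lay below. Over all genes 21.1% lay above and 22.2% below. The 16 were the 7 stress genes that rose by day 7 (Atf4, Atf3, Ddit3, Chac1, Nupr1, Ppp1r15a and Vldlr) together with Psph, Shmt2, Mthfd2, Aldh18a1, Slc7a1, Slc1a4, Slc1a5, Slc38a2 and Iars. The 5 were Trib3, Psat1, Slc7a11, Slc7a5 and Aars. Without day 0 replicate 3, which holds the low day 0 values, 11 genes rather than 5 lay below, and 49.7% of all genes did. From day 4 to day 7 only Nupr1 and Trib3 lay above day 4 in every library, against 13.8% of all genes, and 17 lay below, against 24.6%. The 17 included Atf3, Ppp1r15a and Sesn2 of the stress group, 4 synthesis enzymes, 4 transporters and 6 synthetases. No gene had a day 4 mean at least 2-fold above or below both other stages, the nearest being Slc1a5, whose ratios were 1.97 for day 4 to day 0 and 0.618 for day 7 to day 4.

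Upstream of Atf4, the eIF2 kinases and other genes of the eIF2 pathway mostly did not pass the test. By limma 3 of 15 genes fell, which is near the 18.6% of all genes that fell, and none was higher at an adjusted or an unadjusted p under 0.05. With edgeR 3 were higher and 4 lower, against 22.2% and 20.8% of all genes. With DESeq2 these numbers were 1 and 4, against 20.3% and 18.3%. Impact, which restrains the amino acid sensor GCN2, fell by 0.56 on the log2 scale (SE 0.16, limma adjusted p = 0.00491), from 42.5 to 28.6 RPKM, and Eif2ak4, GCN2 itself, fell by 0.42 (adjusted p = 0.0487), from 4.28 to 3.17 RPKM. The third was the double-stranded RNA sensor Eif2ak2 (-0.49, adjusted p = 0.0273). The ER stress sensor Eif2ak3 (PERK) had a log2 fold change of 0.04 (adjusted p = 0.881).

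Among the 9 bZIP factors that pair with ATF4 or resemble it, none rose and 2 fell by limma, and none was higher at an unadjusted p under 0.05. The falls were near the 18.6% of all genes that fell. Both edgeR and DESeq2 gave 2 higher and 3 lower, against 22.2% and 20.8% of all genes with edgeR and 20.3% and 18.3% with DESeq2. Jdp2 fell by 0.48 (SE 0.16, limma adjusted p = 0.0163), from 56.3 to 39.9 RPKM, and Atf5, a close relative of Atf4, fell by 0.45 (SE 0.16, limma adjusted p = 0.0250), from 201 to 146 RPKM. Cebpb, the partner at many response elements, had a log2 fold change of 0.21 (adjusted p = 0.339).

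In a further list of 20 genes linked to ATF4 in other cells, 9 rose and 2 fell, against 12.6% and 18.6% of all genes. The 2 were again Atf5 and Jdp2. With edgeR 15 were called higher, against 22.2% of all genes. Adm2, a secreted peptide hormone, rose most, by 2.97 (SE 0.20, limma adjusted p = 2.75e-17). It was at 2.12, 2.16 and 2.23 RPKM at day 0, 13.98, 22.7 and 17.9 RPKM at day 4 and 22.3, 18.6 and 20.2 RPKM at day 7, so that both later stages lay far above day 0. The other 8 that rose were Herpud1, a component of ER-associated degradation (1.45), the secreted factors Fgf21 (0.88), Stc2 (0.81) and Gdf15 (0.80), Mthfd1l (0.58), the glycine transporter Slc6a9 (0.57), the mTORC1 inhibitor Ddit4 (0.51) and the alanine transaminase Gpt2 (0.41). Herpud1 is also a known target of the ATF6 branch.

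Relatives of the list's genes were looked at for comparison. Of 19 isoform partners 4 rose and 6 fell, against 12.6% and 18.6% of all genes. Sesn3, a sestrin like Sesn2, fell by 2.18 (SE 0.16, limma adjusted p = 2.10e-16), with 59.8, 65.2 and 56.3 RPKM at day 0, 29.2, 22.2 and 25.1 RPKM at day 4 and 14.1, 12.5 and 12.9 RPKM at day 7, and Sesn1 fell by 1.15, so all 3 sestrins were lower at day 7. Trib1, related to Trib3, rose by 1.28 (SE 0.21, limma adjusted p = 3.85e-06), from 0.706 to 1.83 RPKM. Of 17 mitochondrial synthetases 1 rose (Nars2, 0.60) and 2 fell (Lars2, -2.22, and Cars2, -0.61), against the same 12.6% and 18.6%. Lars2 is one of the ribosomal RNA-related rows, and its value follows the share of those reads in each library. Of the 3 scaffold proteins of the multi-synthetase complex Eef1e1 rose (0.60, SE 0.18, limma adjusted p = 0.00719), and Aimp1 and Aimp2 did not pass the test. For all 3, every day 7 library lay above day 0, against 2146 of the 12710 genes tested with values in all 9 libraries. The log2 fold changes of the 3 scaffold genes ran from 0.33 to 0.60. At an unadjusted p under 0.05 all 3 were higher, against 15.2% of all genes. The methods edgeR, DESeq2 and voom each called the 3 higher too, against 22.2%, 20.3% and 24.8%.

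**Figure D5:**
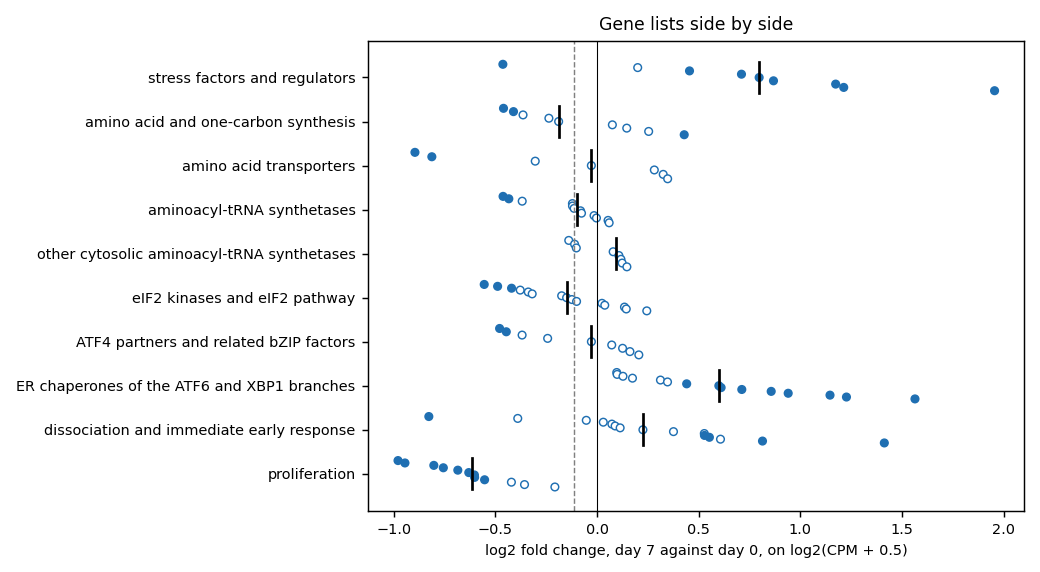
Log2 fold change at day 7 against day 0 of each gene in the 4 groups and in 6 other lists, on the log2(CPM + 0.5) scale, with filled circles for genes past the threshold, a black bar for each list's median and a dashed line at the median of all genes (-0.11). The stress group (median 0.80) and the ER chaperones (0.60) lie to the right, the proliferation genes (-0.62) to the left, and the dissociation and immediate early genes (0.23) between them.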

How the data were processed

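RNA-seq of calvarial osteoblasts at day 0, day 4 and day 7 was used, with 3 libraries per stage mapped by their titles and descriptions. According to the methods and processing notes, the authors depleted ribosomal RNA, aligned reads to GRCm38 with STAR 2.0.4b and counted reads per gene with featureCounts. The authors deposited CPM values (reads on a gene scaled to the library total) and RPKM values (also divided by gene length), in one pair of tables for day 0 and day 7 and another for day 4. Dividing each CPM by its library's smallest step gave whole reads for 100% of values (tolerance 0.01 of a read), and these reads served the count models.

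Levels are RPKM, whose precision is limited by depth, lowest in day 0 replicate 3. The test of day 7 against day 0 used limma (version 3.58.1, R 4.3.3, eBayes with trend). It ran on log2(CPM + 0.5) and covered 12712 genes that averaged 1 CPM or more over the 6 libraries, with Benjamini-Hochberg adjustment over all of them. Day 4 entered no test. The fit was also run on simulated counts whose libraries differed in depth but not in their share of ribosomal RNA-related reads. That run cannot show how the fit handles such a share. Alternatives were other pseudocounts, filters, scaling, robust variances, a replicate block, leaving out each library, and edgeR 4.0.16, DESeq2 1.42.0 and voom with quality weights on recovered reads. Leaving out ribosomal RNA-related rows was chosen after seeing the data. Replicates of a stage had Spearman correlations from 0.988 to 0.997 and differed by more than sampling noise.

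The members and gene lists were chosen with earlier results of these data known. All members are named. By rule, values in every library were to be written for Atf4 and for genes past the threshold with an absolute log2 fold change of at least 1, and from each related list the largest rise and fall. Values in every library of other genes, the ratios and the other named genes were added after values were seen. Promoter windows are from RefSeq, and positions, overlaps and shared 50-base stretches from GENCODE M21, both on GRCm38. Of the promoter stretches found, 7 are printed and the others are not reported here.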

Additional observations from a re-analysis of the deposited data

How the results depend on the processing

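Of 666 values of single members under 18 alternatives, 546 kept direction and side of the threshold, 39 lost the threshold, 45 gained it and 36 changed sign. No called gene changed sign, and 6 of the 8 rises and 2 of the 7 falls held in all 18 alternatives. The number of members higher went from 8 to 14 with median-of-ratios scaling, edgeR and DESeq2 and to 15 with voom and quality weights, while the share of all genes called higher went from 12.6% to between 20.3% and 24.8%. Under these alternatives 3 synthesis enzymes (voom 4), 3 transporters and, with voom, 1 synthetase were higher, against 1, 0 and 0. The number lower went from 7 to 3 with genes with any reads and to 12 without ribosomal RNA-related rows, where 9.45% and 36.3% of all genes were lower, against 18.6%. With genes with any reads no synthesis enzyme was higher or lower and no synthetase lower, and with RPKM values 0 synthesis enzymes were higher and 1 lower. With a pseudocount of 0.1, 1 synthesis enzyme was lower. Without the ribosomal RNA-related rows 4 synthesis enzymes and 4 synthetases were lower and 1 transporter was higher.

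Leaving out 1 library gave 6 to 9 members higher, where 9.07% to 12.8% of all genes were higher, and 2 to 14 lower. The 14 came without day 0 replicate 3, where 36.8% of all genes were lower, and 2 came without day 0 replicate 1, day 0 replicate 2 or day 7 replicate 2, where 12.0% to 12.8% of all genes were. By group the ranges were 0 to 1 stress genes lower, 0 to 1 synthesis enzymes higher and 0 to 5 lower, 0 to 1 transporters higher and 0 to 5 synthetases lower. At day 4, 5 to 11 members lay below day 0 in every library. The cause of these changes was not tested.

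The changes of sign concerned genes that did not pass the test, with log2 fold changes of at most 0.15 in size. With median-of-ratios scaling Slc3a2 was at 0.082, Cars 0.033, Gars 0.10, Tars 0.028 and Wars 0.11. The same 5 genes were at 0.065, 0.030, 0.090, 0.027 and 0.11 with edgeR, at 0.069, 0.035, 0.092, 0.030 and 0.11 with DESeq2 and at 0.023, 0.034, 0.083, 0.027 and 0.15 with voom, where Iars was also at 0.013. Without ribosomal RNA-related rows Aldh18a1 was at -0.0094, Mars -0.025 and Sars -0.031. Leaving out 1 library gave -0.047 to 0.25 for Psph, -0.12 to 0.11 for Slc3a2, -0.18 to 0.091 for Gars, -0.055 to 0.13 for Mars, -0.073 to 0.13 for Sars, -0.075 to 0.078 for Wars and -0.27 to 0.0025 for Yars.

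Libraries with the same replicate number did not deviate together (correlations -0.02, -0.18 and -0.44). The highest correlation, 0.36, was between day 0 replicate 3 and day 7 replicate 2, which had the most ribosomal RNA-related reads (20.8% and 13.3%). These deviations were taken on CPM that include those reads, so they cannot show whether the numbers pair the libraries. With the replicate number as a block, 7 members were higher and 5 lower, with 0 synthesis enzymes higher and 1 lower and 1 synthetase lower, and 1463 genes of all were higher and 1950 lower.

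The day 4 libraries are deeper and lie in another table, and prior degrees of freedom of 42.9 against 4 residual ones give the shared variance trend more weight in the adjusted p-values than a gene's own libraries. For a single gene the smallest exact permutation p is 0.1.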
